A study of Homo sapiens with 6 samples.

Results

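The 10 genes described here were a fixed set of secreted and mucin genes of glandular epithelium: MUC1, MUC5B, TFF3, PIP, SCGB2A2, SCGB1D2, AGR2, AGR3, AZGP1 and MSMB. They were chosen by name, out of 61279 genes to which the deposited transcripts could be summed, and 8 of the 10 were among the 16442 genes with enough reads to be tested. The RNA was labelled as coming from T47D, a line of breast cancer cells that carry hormone receptors, of genotype WT, grown in RPMI medium with serum. By the labels, the cells were treated for 24 hours either with the solvent DMSO or with 4 μmol/L MI-503, a small molecule that keeps menin from binding MLL1, and each label had 3 libraries called biological replicates 1 to 3. Libraries held 17404736 to 22168525 estimated reads. Every contrast below sets the 3 libraries labelled MI-503 against the 3 labelled DMSO.

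The labels did not match the markers of the line in all libraries. ESR1, the gene of the estrogen receptor, was at 0, 0.194 and 0 CPM in the DMSO libraries and between 210 and 296 CPM in the MI-503 libraries (CPM are read counts scaled by library size). KLK3, the gene of prostate-specific antigen, was between 3673 and 3762 CPM in the former and without a read in the latter. All 11 luminal breast markers tested were higher with the MI-503 label, and all 11 prostate markers tested were lower. The summed level of the luminal markers was 179 to 294 TPM (transcript abundance scaled by length and library size) with the DMSO label and 4974 to 7136 TPM with the MI-503 label, and that of the prostate markers was 5316 to 6579 TPM against 36.2 to 39.7 TPM. Since this split runs along the same line as the treatment labels, an effect of MI-503 on the genes below and a difference in the origin of the libraries cannot be told apart.

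Glandular epithelium makes a mixture of products for the duct. Mucins are long, heavily O-glycosylated proteins that stand on the apical membrane, as MUC1 does, or polymerize into the mucus gel, as MUC5B does. Trefoil factors are small cysteine-rich peptides released together with mucins. PIP, AZGP1, MSMB and the secretoglobins are small secreted proteins found in breast fluid, milk, seminal plasma or other exocrine secretions, and several of them are under steroid hormone control. AGR2 and AGR3 are protein disulfide isomerases of the secretory pathway, and AGR2 takes part in the folding of mucins.

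Upstream sequence was matched by symbol in RefSeq (GRCh38.p14) for 7 of the 10 genes. The 250 bases before the start site are shown for 4 genes, AGR2 and AGR3 because they are neighbors that differed in their level with the DMSO label, and PIP because it had the highest level of the 10 genes with the MI-503 label, and MUC1 as the membrane mucin. Each start site was that of the gene's canonical GENCODE transcript. Capitals mark matches on either strand to the short motifs described further below.
AGR2 (chr7:16805000-16805249, minus strand): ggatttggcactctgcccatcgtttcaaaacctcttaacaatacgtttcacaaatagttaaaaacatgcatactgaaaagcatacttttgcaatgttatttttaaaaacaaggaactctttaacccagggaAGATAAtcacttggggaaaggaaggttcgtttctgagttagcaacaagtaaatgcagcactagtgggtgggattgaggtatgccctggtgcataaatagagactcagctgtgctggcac
AGR3 (chr7:16881984-16882233, minus strand): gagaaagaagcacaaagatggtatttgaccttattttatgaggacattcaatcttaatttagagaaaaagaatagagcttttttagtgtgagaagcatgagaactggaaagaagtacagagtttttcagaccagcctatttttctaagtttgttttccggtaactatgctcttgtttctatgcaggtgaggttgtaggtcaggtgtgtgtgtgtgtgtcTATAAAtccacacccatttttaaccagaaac
PIP (chr7:143131827-143132076, plus strand): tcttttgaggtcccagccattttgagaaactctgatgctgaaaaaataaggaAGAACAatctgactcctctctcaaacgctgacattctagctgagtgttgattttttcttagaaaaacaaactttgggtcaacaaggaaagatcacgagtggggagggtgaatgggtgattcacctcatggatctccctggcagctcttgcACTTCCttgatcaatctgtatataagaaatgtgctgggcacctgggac
MUC1 (chr1:155192916-155193165, minus strand): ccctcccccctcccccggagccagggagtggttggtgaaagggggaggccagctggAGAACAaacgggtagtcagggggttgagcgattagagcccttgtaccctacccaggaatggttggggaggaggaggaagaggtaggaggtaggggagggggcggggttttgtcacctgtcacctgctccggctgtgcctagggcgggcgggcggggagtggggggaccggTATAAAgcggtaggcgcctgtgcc

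Of the 10 genes, 6 were higher with the MI-503 label, MSMB was lower, MUC5B did not pass the test, and SCGB2A2 and SCGB1D2 had too few reads for it (edgeR's quasi-likelihood test, adjusted p under 0.05 over all genes tested). In this contrast, 31.7% of all genes tested were higher and 31.2% were lower. The study's threshold also asks for a log2 fold change over 2 or under −2, and all 7 of these genes passed it, against 12.6% of all genes higher and 11.7% lower. Among the 8 genes tested, the libraries of the labels did not overlap for the 6 that were higher and for MSMB, where 34.7% of all genes tested were so in the higher direction and 34.0% in the lower. The median log2 fold change of the 8 genes tested was 6.05, and that of all 16442 genes was −0.0044. MUC1, PIP, AGR3 and MUC5B had at least 10 reads in all 3 libraries of the MI-503 label only, so their passing of the filter on low counts rested on that label, and that of MSMB rested in the same way on the DMSO label. Because bulk RNA was measured, fewer cells that make a transcript and less of it in each cell cannot be told apart.

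**Figure D1:**
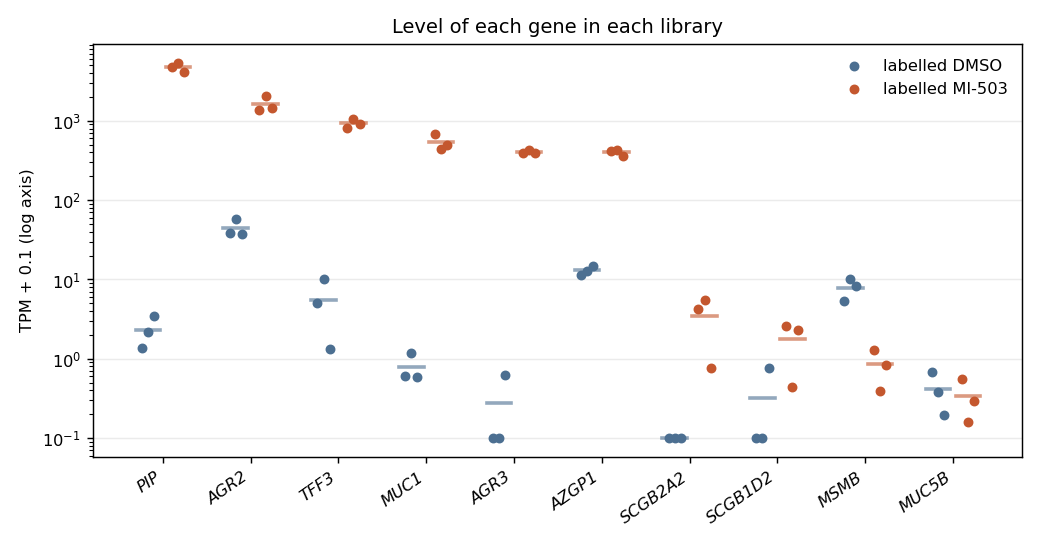
Level of each of the 10 genes in each library as TPM + 0.1 on a log axis; dots are single libraries and bars the means of 3. PIP lies at 4117 to 5400 TPM with the MI-503 label and at 1.25 to 3.35 TPM with the DMSO label, whereas MUC5B lies under 1 TPM in every library.

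MUC1 (ENSG00000185499), a transmembrane mucin of simple epithelia, lies on the minus strand of chromosome 1 from 155185824 to 155192916 (GRCh38, as for all positions here). It was assigned 5, 17 and 5 reads in DMSO replicates 1, 2 and 3 and 7972, 5397 and 4772 reads in MI-503 replicates 1, 2 and 3. In CPM, these were 0.226, 0.823 and 0.228 against 389, 282 and 283. No library of either label came near the other label, and the DMSO values spread over 3.64-fold where the MI-503 values spread over 1.38-fold. The log2 fold change of MUC1 was 9.55 (SE, the standard error, 0.40, edgeR adjusted p = 6.9e-08).

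MUC5B (ENSG00000117983), a gel-forming mucin of airway, salivary and cervical mucus, lies on the plus strand of chromosome 11 from 1223066 to 1262172. Its reads were 19, 8 and 14 with the DMSO label and 14, 17 and 21 with the MI-503 label, and the labels overlapped. The mean was 0.628 ± 0.236 CPM (SD, n = 3) with DMSO and 0.940 ± 0.286 CPM (SD, n = 3) with MI-503, a log2 fold change of 0.57 (SE 0.47, edgeR adjusted p = 0.322). In TPM the means were 0.320 and 0.236, in the opposite order, but without DMSO replicate 1 the DMSO mean was 0.191, and without MI-503 replicate 1 the MI-503 mean was 0.125. MUC5B-205, a short transcript of 446 bases, took 6.53%, 9.25% and 0% of the reads in the DMSO libraries and none in the MI-503 libraries, while MUC5B-203, of 443 bases, took 7.14% in MI-503 replicate 1 alone. No difference in MUC5B was detected.

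TFF3 (ENSG00000160180), the trefoil factor of goblet cells that is also made by estrogen receptor–positive breast cells, lies on the minus strand of chromosome 21 from 42311667 to 42315409. It had 66, 87 and 18 reads with the DMSO label and 5477, 5474 and 5607 reads with the MI-503 label. In CPM these were 2.98, 4.21 and 0.821 against 267, 286 and 333, so that the DMSO libraries differed among themselves by 5.13-fold and the MI-503 libraries by 1.25-fold. The labels did not overlap, and the log2 fold change was 6.79 (SE 0.46, edgeR adjusted p = 1.37e-06).

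PIP (ENSG00000159763), prolactin-induced protein, also known as gross cystic disease fluid protein, is a secreted protein of apocrine glands. The gene lies on the plus strand of chromosome 7 from 143132077 to 143139739. Reads of PIP numbered 6, 10 and 17 in DMSO replicates 1 to 3 and 23298, 25596 and 16382 in MI-503 replicates 1 to 3. The mean was 0.510 ± 0.253 CPM in the DMSO libraries and 1149 ± 183 CPM in the MI-503 libraries (SD, n = 3 each), and the log2 fold change of 11.12 (SE 0.35) had an adjusted p of 2.06e-08 in edgeR. Ordered by TPM among all genes, PIP was at rank 16, 12 and 22 in the MI-503 libraries and between rank 11468 and rank 13990 in the DMSO libraries.

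AZGP1 (ENSG00000160862), which encodes zinc-alpha-2-glycoprotein, a secreted lipid-mobilizing protein of breast and prostate epithelium, lies on the minus strand of chromosome 7 from 99966720 to 99976042. It was at 7.42, 9.25 and 10.3 CPM in the DMSO libraries and at 293, 295 and 258 CPM in the MI-503 libraries. AZGP1 had the smallest fold of the 6 genes that were higher, and its libraries agreed most closely within the DMSO label, where they spread over 1.39-fold. The log2 fold change was 4.97 (SE 0.19, edgeR adjusted p = 4.24e-08). A neighboring pseudogene copy, AZGP1P1, was given 15, 2 and 6 reads with DMSO and 35, 32 and 38 with MI-503, and some reads of AZGP1 may have been assigned to it.

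The secretoglobins form small secreted dimers, and SCGB2A2 (mammaglobin-A) and SCGB1D2 (lipophilin B) pair with each other in breast secretions. Both lie on the plus strand of chromosome 11, SCGB1D2 from 62242239 to 62244812 and SCGB2A2 from 62270158 to 62273160. SCGB2A2 (ENSG00000110484) had no reads in the 3 libraries with the DMSO label and 15, 20 and 2 reads with the MI-503 label, which is at least 14.1-fold higher when 3 reads in all are assumed for the DMSO libraries as a floor. MI-503 replicate 3 thus held 8.80-fold less SCGB2A2 in CPM than replicate 2. SCGB1D2 (ENSG00000124935) had 0, 0 and 2 reads against 7, 1 and 5, a ratio of 7.45 and a 95% counting interval from 1.69 to 67.98 (exact binomial). The labels overlapped for SCGB1D2 and did not for SCGB2A2. With no filter on low counts, SCGB2A2 had an adjusted p of 3.55e-05 and SCGB1D2 an adjusted p of 0.106 in edgeR. Neither secretoglobin was above 5.39 TPM in any library.

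MSMB (ENSG00000263639), beta-microseminoprotein, is among the abundant proteins of seminal plasma, and its gene lies on the minus strand of chromosome 10 from 46033307 to 46048180. It had 19, 34 and 25 reads with the DMSO label and 4, 1 and 2 reads with the MI-503 label. These were 0.859, 1.65 and 1.14 CPM against 0.195, 0.0523 and 0.119 CPM, with no overlap. The log2 fold change was −3.23 (SE 0.59, edgeR adjusted p = 0.000849), the only gene of the 10 that was lower past the test. It rested on 78 reads against 7 over the libraries of each label.

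AGR2 and AGR3 are adjacent on the minus strand of chromosome 7, AGR2 (ENSG00000106541) from 16791811 to 16833433 and AGR3 (ENSG00000173467) from 16859412 to 16881987. AGR2 was at 23.4, 36.1 and 23.8 CPM in the DMSO libraries and at 1037, 1265 and 1015 CPM in the MI-503 libraries. Its log2 fold change was 5.32 (SE 0.24, edgeR adjusted p = 1.03e-07). AGR3 had 0, 0 and 1 read with the DMSO label and 1763, 1928 and 1564 reads with the MI-503 label. The ratio for AGR3 was 6022 and a 95% counting interval from 1080 to 237883, and the fitted log2 fold change was 12.07 (edgeR adjusted p = 2.07e-08). AGR2 was thus well above 0 in every library, whereas AGR3 was near the limit of detection with the DMSO label, and both were far higher with the MI-503 label.

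**Figure D2:**
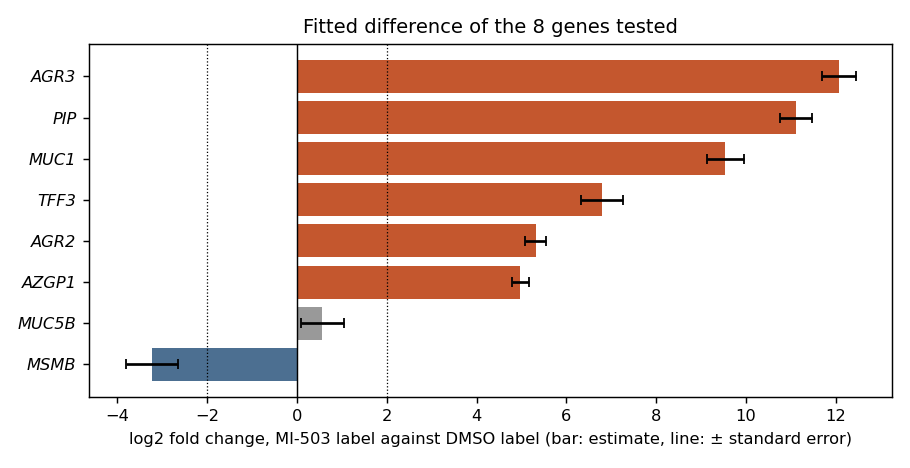
Fitted log2 fold change of the 8 genes tested, with the SE as a line; orange bars were higher, the blue bar lower, and the gray bar did not pass the test, and dotted lines mark −2 and 2. AGR3 and PIP stand at 12.07 and 11.12 and MSMB at −3.23; a fold against a label near 0 reads has more uncertainty than its line shows.

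Between genes, levels were compared in TPM only. With the MI-503 label the order was PIP at 4117 to 5400 TPM, AGR2 at 1362 to 2084, TFF3 at 819 to 1051, MUC1 at 439 to 691, AGR3 at 393 to 423 and AZGP1 at 365 to 424 TPM. The range of each of these genes over 3 libraries did not overlap that of the next, except for AGR3 and AZGP1, whose ranges overlapped. SCGB2A2, SCGB1D2, MSMB and MUC5B followed at or under 5.39 TPM, with overlapping ranges. These levels are sums over transcripts, and part of them lies in short transcripts. TFF3-202, of 419 bases, was at 516, 773 and 513 TPM in MI-503 replicates 1 to 3. TFF3-203, the canonical transcript, was at 301, 273 and 399 TPM. MUC1-225, the canonical transcript, was at 131 to 159 TPM, below AGR3-201 at 205 to 244 and AZGP1-201 at 308 to 351 TPM. The order of TFF3, MUC1, AGR3 and AZGP1 thus held for the sums and not for these canonical transcripts. With the DMSO label AGR2 led at 37.7 to 57.4 TPM, followed by AZGP1 at 11.2 to 14.7 TPM and by MSMB and TFF3, whose ranges overlapped. MSMB was thus in place 3 of the 10 in one label and in place 9 in the other.

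Summed over the 10 genes, the level was 62.0 to 93.7 TPM with the DMSO label and 7739 to 9827 TPM with the MI-503 label, or 0.774% to 0.983% of all transcripts. AGR2 made up 56.4% to 61.9% of that sum with DMSO, and PIP made up 53.2% to 56.3% with MI-503. In the MI-503 libraries AGR2 exceeded AGR3 by 3.46 to 4.92 times in TPM. The mix was led by AGR2 with one label and by PIP with the other.

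Salmon also divides the reads of a gene among its transcripts, and the shares below are such estimates. In the MI-503 libraries, 61.5% ± 6.69 (SD, n = 3) of MUC1 reads were given to MUC1-225, the canonical transcript of 1811 bases and 8 exons. A further 17.5% ± 2.84 went to MUC1-226 and 9.91% ± 3.79 to MUC1-217 (SD, n = 3 each), both annotated as retained introns. Of the 26 MUC1 transcripts in the files, 15 had a read. MUC1-219 took 15.3%, 2.72% and 10.8% of the reads in MI-503 replicates 1, 2 and 3. The 27 MUC1 reads of the DMSO libraries were too few for shares to be compared.

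AGR2-203, the canonical transcript of AGR2, took 74.2% ± 1.13 of the gene's reads with the DMSO label and 77.5% ± 6.33 with the MI-503 label (SD, n = 3 each), so the difference was within the spread of the MI-503 libraries. For AZGP1-201 the shares were 83.0% ± 7.20 and 88.4% ± 1.65 (SD, n = 3 each), with overlapping libraries. AGR3-201 held 82.9% ± 2.94 (SD, n = 3) of AGR3 reads with MI-503. TFF3-203 held 100%, 87.0% and 100% of TFF3 reads with DMSO and 78.9%, 66.2% and 83.2% with MI-503, the remainder going almost wholly to TFF3-202, which has no annotated coding sequence. The shares of TFF3 did not overlap between labels, but the first set rests on 171 reads. With 3 libraries a side no exact permutation test of a share can go below p = 0.1, and none was made.

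**Figure D3:**
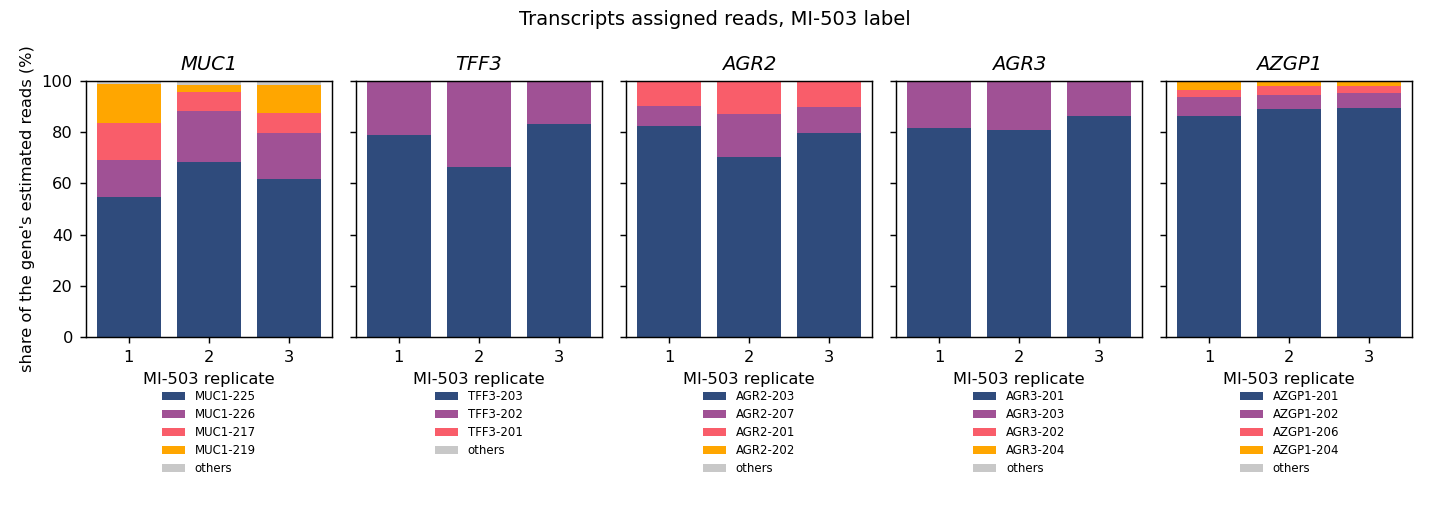
Share of each gene's estimated reads given to its transcripts in the 3 libraries labelled MI-503, in percent; colors are up to 4 leading transcripts of MUC1, TFF3, AGR2, AGR3 and AZGP1 and gray the others. MUC1 is divided among 4 transcripts, with MUC1-225 at 54.8% to 68.2%, while AZGP1-201 holds 86.5% to 89.5% of AZGP1 reads.

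Position was not used in choosing the genes, so their 3 nearest protein-coding genes on each side were examined. Of 48 such neighbors outside the set, 28 were tested, with 13 higher, 2 lower and 13 not past the test, where 31.7% and 31.2% of all genes were higher and lower. Around TFF3, the trefoil gene TFF1 was higher, at 1.16 ± 0.153 and 88.2 ± 13.9 CPM (SD, n = 3 each; log2 fold change 6.24, SE 0.23, edgeR adjusted p = 3.31e-08). The protease gene TMPRSS3, on the far side of TFF1, went from 1 read to 795 reads over 3 libraries, a ratio of 911 and a 95% counting interval from 163 to 36026. TFF2, which lies between TFF3 and TFF1, had no reads in any of the 6 libraries. On the other side, ABCG1 and ZBTB21 had log2 fold changes of 0.78 and 0.29 and did not pass the test (edgeR adjusted p = 0.054 and 0.359). The 2 trefoil genes thus differed in the same direction, and their TPM ratio (TFF3 to TFF1) was 1.78 to 1.87 with MI-503 and 0.203 to 1.32 with DMSO. This ratio takes in the short transcript TFF3-202. With MI-503, TFF3-203 alone was at 273 to 399 TPM, below TFF1 at 455 to 562 TPM.

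At the AGR2 and AGR3 locus, TSPAN13, a tetraspanin gene 7.27 kb from AGR2, was higher by a log2 fold change of 1.94 (189 to 724 CPM; SE 0.15, edgeR adjusted p = 2.98e-06). AHR, the gene of the aryl hydrocarbon receptor on the other side of AGR3, had 5 reads over the DMSO libraries and 2026 over the MI-503 libraries (log2 fold change 8.74, SE 0.46). BZW2 had 84.6 and 96.4 CPM and did not pass the test (edgeR adjusted p = 0.286). Around MUC1, by contrast, the nearest tested neighbors TRIM46 and THBS3 had log2 fold changes of 0.84 (edgeR adjusted p = 0.0535) and 1.69 (adjusted p = 0.000466), far from the 9.55 of MUC1. AZGP1 lay between GJC3 and ZKSCAN1. GJC3 was higher, at 0.184 and 1.32 CPM (log2 fold change 2.79, edgeR adjusted p = 0.000901), and ZKSCAN1, at 137 and 177 CPM, did not pass the test. Beyond ZKSCAN1, ZNF3 was lower (log2 fold change −1.12, edgeR adjusted p = 0.000205). ZSCAN21 was higher (0.60, edgeR adjusted p = 0.0376), a call lost in 7 of 12 alternatives. No other secretoglobin among the neighbors of SCGB2A2 and SCGB1D2 had more than 7 reads over the libraries of a label.

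**Figure D4:**
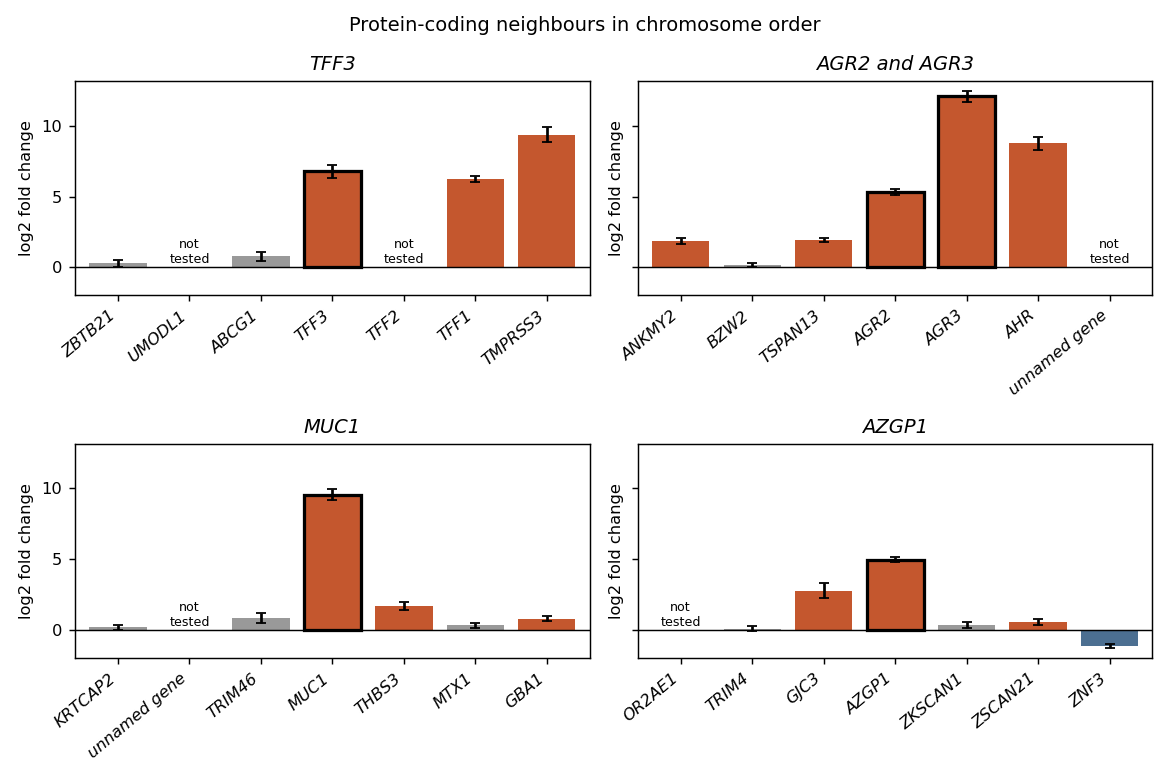
Log2 fold change (line: SE) of TFF3, AGR2 with AGR3, MUC1 and AZGP1 and their 3 nearest protein-coding genes on each side, in chromosome order; outlined bars are genes of the set, orange higher, blue lower and gray not past the test. TFF1 and TMPRSS3 beside TFF3, at 6.24 and 9.35, and AHR beside AGR3, at 8.74, stand near the height of the set, and the neighbors of MUC1 at 1.69 or less do not.

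The 250 upstream bases were searched on both strands for short motifs. A TATA box, TATAAA, was found in MUC1, from base −24 to −19 before the start, and in AGR3, from −31 to −26, and 10.7% of 35116 RefSeq promoter windows of the same length hold this motif. The hexamer TGTTCT, bound by the progesterone receptor, was found on the reverse strand in MUC1 and PIP (12.4% of windows), the ETS motif GGAAGT in PIP (19.5%) and the GATA motif AGATAA in AGR2 (9.17%). The forkhead motif TGTTTAC was found in SCGB2A2 only (2.98% of windows). None of the 7 windows held the palindromic element of the estrogen receptor (0.0399% of windows) or the element bound by XBP1 and ATF6 (0.612%). Windows of the 4 printed sequences were unlike in base composition, with 36.4% G and C in AGR3, 40.4% in AGR2, 43.6% in PIP and 66% in MUC1, against a median of 58% over all windows. These are matches of letters and show no binding.

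Related genes were counted from lists of the same families. Of 18 other mucins, 15 had too few reads to be tested, among them MUC2, MUC5AC and MUC6, the gel-forming neighbors of MUC5B. CD164, a sialomucin, was higher (293 to 433 CPM, log2 fold change 0.57, edgeR adjusted p = 0.0228), while MUC20 and OVGP1 were lower by log2 fold changes of −1.25 and −1.44 (adjusted p = 0.0299 and 0.00967). Of 10 other trefoil factors and secretoglobins, TFF1 was the only one with enough reads. The CD164 call was lost without DMSO replicate 2, DMSO replicate 3 or MI-503 replicate 2 (adjusted p = 0.058, 0.0528 and 0.0504 in edgeR). The MUC20 call was lost in 7 of 12 alternatives, among them DESeq2 and the leaving out of DMSO replicate 2, DMSO replicate 3, MI-503 replicate 1 or MI-503 replicate 2 (adjusted p up to 0.108), and the OVGP1 call in none. MUC1 was the only mucin tested with a log2 fold change over 2. Among the mucins not tested, MUCL1 had 6 reads over the DMSO libraries and 41 over the MI-503 libraries, without overlap in CPM. MUC3A and MUC4 went the other way without overlap, with 22 reads against 6 and 37 against 8.

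Other protein disulfide isomerases were higher or lower by gene. Of 20 listed, 6 were higher, 8 were lower, 5 did not pass the test and 1 was not tested, with a median log2 fold change of −0.25. One of the 6 stood on this list by mistake, as it is no isomerase, and without it 5 of 18 tested were higher and 8 lower, with a median of −0.29, where 31.7% of all genes were higher and 31.2% lower. TMX3 and TMX4, membrane-bound oxidoreductases, were lower by log2 fold changes of −1.26 and −1.05 (edgeR adjusted p = 0.00015 and 0.000212). ERP27, an ER-resident chaperone, was higher at 1.43 ± 0.164 CPM against 0.0302 ± 0.0522 CPM (SD, n = 3 each), a ratio of 46.4 and a 95% counting interval from 12.4 to 390.

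Secreted proteins of breast and milk and those of prostate and seminal fluid had medians of opposite sign. Of 22 genes of the breast and milk list, 9 were higher, 4 were lower, 1 did not pass the test and 8 were not tested, with a median log2 fold change of 2.54. The shares over all genes tested were 31.7% higher and 31.2% lower. The list also holds BTN1A1, PIGR and SPINT1, which encode membrane proteins, and XDH, which encodes an enzyme. PIGR did not pass the test and SPINT1 was higher, and both enter the median. BTN1A1 and XDH were not tested. SERPINA1, the antitrypsin gene, was at 0.607 ± 0.293 CPM with DMSO and at 306 ± 62.5 CPM with MI-503, and CLU, which encodes the chaperone clusterin, at 1.66 ± 0.697 and 294 ± 35.9 CPM (SD, n = 3 each). SPINT1, a protease inhibitor, and APOD, an apolipoprotein of breast cyst fluid, were higher by log2 fold changes of 2.50 and 2.81. The 4 that were lower were LTF, the gene of lactoferrin, with 97 reads against 1 over the libraries of each label, and SLPI, LRG1 and MFGE8, with log2 fold changes of −1.99, −0.94 and −0.81. The milk genes LALBA, CSN1S1 and CSN3 had no reads in any library.

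Of 18 genes of prostate and seminal fluid, 2 were higher, 6 were lower, 1 did not pass the test and 9 were not tested, with a median log2 fold change of −7.09, or −6.64 with genes at 0 in a label set to their bound. Among all genes tested, 31.7% were higher and 31.2% lower. The list also holds BMPR1B, a receptor gene, and NEFH, a neurofilament gene, which do not encode secreted proteins. BMPR1B is the gene that did not pass the test and enters the median, and NEFH was not tested. SPON2, a secreted matrix protein, had 950 ± 37.3 CPM with the DMSO label and at 0.956 ± 0.289 CPM with the MI-503 label (SD, n = 3 each). KLK2 and KLK4, secreted kallikrein proteases, were lower by log2 fold changes of −13.86 and −7.09. KLK2, KLK3, KLK4 and ACP3, all lower, are also on the list of prostate markers counted above, so they are no separate observation. CRISP3, a cysteine-rich secretory protein, was higher, from 5.53 ± 2.92 to 212 ± 48.6 CPM (SD, n = 3 each). MSMB, a protein of seminal plasma, was lower as those 6 were, from a level of 1.22 CPM. AZGP1, a protein of breast and prostate epithelium, and PIP were higher, by log2 fold changes of 4.97 and 11.12.

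**Figure D5:**
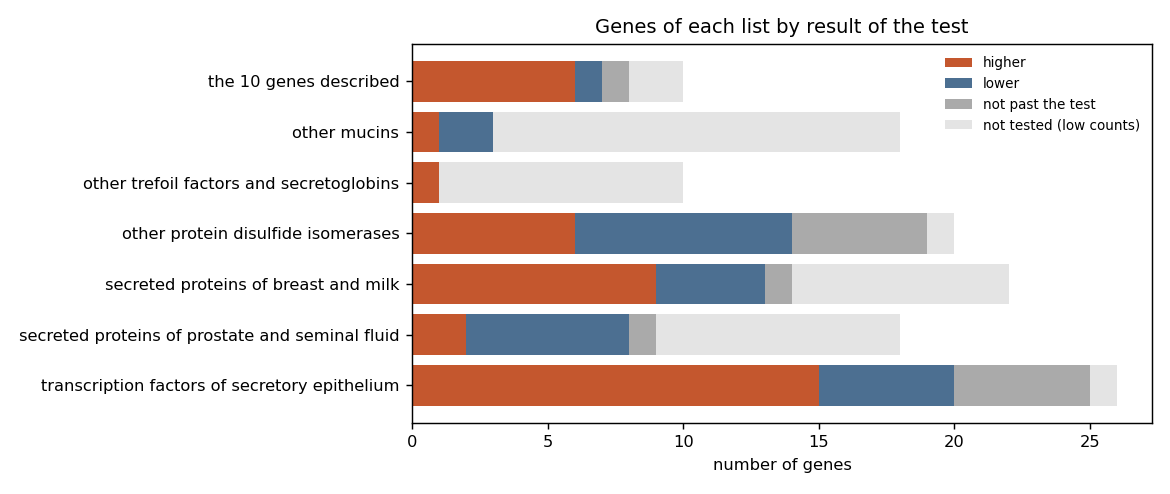
Number of genes of each list that were higher, lower, not past the test or not tested (edgeR, adjusted p under 0.05). Of the 10 genes described, 6 were higher and 1 lower, while the genes of prostate and seminal fluid had 2 higher and 6 lower.

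Transcription factors that act in secretory epithelium were measured beside these genes. Of 26, 15 were higher, 5 were lower, 5 did not pass the test and 1 was not tested, with a median log2 fold change of 0.80. Over all genes tested, 31.7% were higher and 31.2% lower, with a median of −0.0044. Without each library in turn, 12 to 14 of the factors were higher and 4 to 5 lower. Several of these factors, such as ESR1, PGR, GATA3 and HOXB13, are also on the luminal breast or prostate marker lists counted above. PGR, the progesterone receptor, was at 0.328 ± 0.253 and 1386 ± 132 CPM and ELF5, a factor of alveolar secretory cells, at 1.14 ± 0.460 and 124 ± 4.99 CPM with DMSO and MI-503 (SD, n = 3 each). HOXB13, a homeobox gene of the prostate, was at 552 ± 90.0 CPM with DMSO and had 1 read over the MI-503 libraries. SPDEF, an ETS factor of goblet cells, was higher by a log2 fold change of 1.03 (edgeR adjusted p = 0.00028), XBP1, which expands the secretory pathway, by 2.52, while FOXA1 had a log2 fold change of −0.01 (adjusted p = 0.98). The part of these factors in the levels of the secreted genes was not tested.

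Markers of other cell types that make such products were counted as well. Of 8 lung and airway markers, FOXJ1 alone was tested and was higher, and SFTPA1, SFTPB and SCGB3A2 had no reads. Basal and squamous markers had 3 of 8 tested, with 2 higher and 1 lower, and KRT5, KRT17 and DSG3 were at 0. Mesenchymal markers had 4 of 8 tested, with 1 higher and 2 lower. Blood cell markers had 3 of 8 tested, with 2 higher, and PTPRC and CD3E were at 0. Neuroendocrine markers had 3 of 8 tested, with 2 higher, and CHGB and NEUROD1 were at 0. For comparison, 31.7% of all genes tested were higher and 31.2% were lower. Summed over a list, the level ranged in TPM from 0.326 to 1.60 with DMSO and 2.13 to 5.90 with MI-503 for lung, from 4.81 to 8.18 and 99.7 to 149 for basal, from 140 to 204 and 58.5 to 96.0 for mesenchymal, from 1.86 to 3.52 and 9.82 to 16.7 for blood, and from 13.4 to 27.6 and 14.8 to 17 for neuroendocrine markers. The part of these genes in the result was not tested.

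Genes most like the set were sought by the Euclidean distance of log2(TPM + 0.1) over the 6 libraries among 13462 protein-coding genes. Nearest to MUC1 was CLDN1, a tight junction claudin (distance 0.796), nearest to PIP were CRABP2 (2.08) and TMSB4X (2.50), and nearest to AGR3 were EFHD1 (1.29) and LURAP1L (1.79). KRT19 was nearest to AGR2 (2.05), and CA12 to AZGP1 (1.07). LGALS1 was nearest to TFF3 (2.04), with TFF1 next (2.76). With only 2 labels, such likeness reflects the level in each label and little else.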

How the data were processed

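RNA was sequenced from 6 libraries, 3 per label. The authors quantified transcripts with salmon (Illumina DRAGEN). The deposited files hold salmon's estimated counts per transcript, with no normalization, and TPM, which the authors' run of salmon scaled by effective length within each library. The submitters' processing notes name GRCh38.p13 and hg38; the salmon version and annotation have no mention in the sources read.

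Transcripts were matched by identifier to GENCODE release 44 (229321 of 232117, at least 99.16% of the reads of each library), summed to genes and rounded. Mitochondrial genes took 1.38% to 7.18% of reads. Genes passing filterByExpr were tested with edgeR 4.0.16 (quasi-likelihood, TMM) in R 4.3.3 with Benjamini-Hochberg adjustment; the SE is the fold change divided by the root of F. CPM are TMM-scaled. The step was tested on simulated data. Intervals and floors cover counting error only. The labels call the replicates biological, and p-values measure the spread between these libraries. Alternatives were RLE scaling, DESeq2 1.42.0, other filters on low counts, mitochondrial genes left out, a replicate block and each library left out.

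The 10 genes, the gene lists and the tests were chosen with earlier results of these data known. Named genes were the 10, up to 4 per list by smallest adjusted p, neighbors, genes of most similar level and markers on which a label turns; other list members were named after their values were seen. A few items that the rule names are not reported here.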

Additional observations from a re-analysis of the deposited data

How the results depend on the processing

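Each of the 8 genes tested kept its direction and its side of the threshold under every alternative in which it was tested, over log2 fold changes of 9.24 to 10.41 for MUC1, 6.36 to 7.27 for TFF3, 10.81 to 11.56 for PIP, 5.21 to 5.54 for AGR2, 11.61 to 13.85 for AGR3, 4.85 to 5.08 for AZGP1, −3.71 to −2.86 for MSMB and 0.31 to 0.85 for MUC5B. With a filter of at least 1 CPM in 3 libraries, MSMB and MUC5B were not tested, so 0 of the 10 genes were lower. With DESeq2 and with no filter 7 of the 10 were higher, and without each library in turn 6 to 7 were, the added gene being SCGB2A2. Of the other mucins, 2 were higher and 1 lower with DESeq2, 3 were higher with no filter, and without each library in turn 0 to 2 were higher and 1 to 3 lower. The number of other mucins lower was 1 without DMSO replicate 2, and without MI-503 replicate 2 none was higher and 1 was lower. Without MI-503 replicate 3, 2 were higher. The other protein disulfide isomerases had 4 to 7 lower without each library in turn, with 4 without MI-503 replicate 2. Of the secreted proteins of prostate and seminal fluid, 1 was higher with the 1 CPM filter. Of the neighbors, whose alternatives were chosen after seeing the data, 5 were lower with no filter and 1 to 3 without each library in turn, 1 of these without DMSO replicate 2. TRIM46 and ABCG1, which did not pass the test, each passed it in 4 of 12 alternatives, DESeq2 among them. With the replicate number as a block, 1 of the other mucins and 1 of the neighbors were lower, and the counts of the 10 genes did not change. Deviations of same-numbered libraries had correlations of −0.059, 0.132 and −0.076, so the libraries were taken to share a number only. With the block, 5071 genes were higher and 4913 lower, against 5208 and 5130 without. Depth limits MUC5B, MSMB, SCGB2A2 and SCGB1D2, which had 93 reads or fewer over all 6 libraries.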

Other observations

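Of 10 gut and goblet cell markers, 1 was higher, 2 were lower, 1 did not pass the test and 6 were not tested. Over the whole series, 31.7% of genes tested were higher and 31.2% were lower. FCGBP, which encodes a mucus-associated protein, was at 38.1, 24.7 and 22.2 CPM with the DMSO label and had 1 read over the 3 libraries with the MI-503 label, a ratio of 1606 and a 95% counting interval from 288 to 63458 (edgeR adjusted p = 3.12e-07). SPINK4, a small protease inhibitor released by goblet cells, had no reads with DMSO and 1.66, 1.62 and 1.66 CPM with MI-503, at least 35.5-fold higher (edgeR adjusted p = 8.01e-05). VIL1, the villin gene, was lower by a log2 fold change of −3.73. The defining factors of the gut list were at or near 0 in both labels, with no reads of CDX1 and at most 0.126 CPM on average for CDX2. Summed over the 10 markers of this list, the level was 7.06 to 11.1 TPM with DMSO and 12.8 to 14.5 TPM with MI-503. These genes were named after their values were seen.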
